A study of Drosophila melanogaster with 12 samples.

Results

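The ELAV family of Drosophila melanogaster comprises 3 measured genes, Rbp9, elav and fne, and was followed in testes with and without the DNA-binding protein Su(Hw). Its members were taken as every probe set whose only gene symbol is one of these names in the platform's annotation, which gave 4 of the 18769 probe sets tested and 3 of 11982 named genes. Rbp9 has 2 probe sets, and elav and fne have 1 each.

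ELAV family proteins bind U-rich stretches of RNA through RNA recognition motifs and act on splicing, polyadenylation and the stability or translation of mRNA. ELAV itself is nuclear and is the classic marker of postmitotic neurons, and FNE ("found in neurons") is a closely related neuronal protein. RBP9 is found in neurons and also in the cytoplasm of differentiating female germ cells, where it is needed for cysts to mature and acts on the mRNA of the differentiation factor bam. Su(Hw) is a zinc-finger protein known from the gypsy insulator, and in the ovary it is known to repress Rbp9. Flies without Su(Hw) are female sterile while males are fertile, so the arrays allow the question whether Rbp9 and its relatives respond to the loss of Su(Hw) in the testis.

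RNA was measured on 12 Affymetrix arrays, 3 for each of 4 genotypes, all from testes of males aged 3 days, with many pairs of testes pooled per array. Canton S is a laboratory wild type with no listed mutation. BL15598 is wild type for su(Hw) and carries y[1]w[67c23], mutations in the body and eye colour genes yellow and white, together with the P element insertion P{EPgy2}Amt[EY02782]. The null A2663/2 has the same y, w and Amt alleles with su(Hw)[A2663]/su(Hw)[2]. The null 2/v carries su(Hw)[2]/su(Hw)[v] with y[1]w[67c23] and adds the cut and forked alleles ct[6] and f[1], without the Amt insertion. Both nulls therefore carry su(Hw)[2], A2663/2 has a wild type that shares its other listed alleles, and 2/v has none. Each array is a bulk sample, in which fewer cells of a type and less RNA per cell cannot be told apart.

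The su(Hw) signal was 864, 885 and 1205 in Canton S and 1410, 1544 and 1223 in BL15598. It was 64.0, 56.7 and 89.6 in A2663/2 and 38.7, 19.2 and 70.0 in 2/v, so that all 6 null arrays lay below all 6 wild-type arrays. No source used here says where its probes lie relative to the allelic lesions. The testis was present as labelled, by 15 germline markers that include vas and the sperm-tail gene dj. Their summed signal was 110939 to 152107 over the wild-type arrays and 122886 to 140846 over the nulls. Bright genes make up most of this sum, such as betaTub85D with geometric means of 29153 to 31921. Dimmer ones such as vas, at 98.3 to 110, hardly count in it. Of the 15, 0 were below the median control signal of 20.4 on all 3 arrays of any genotype. Array medians ran from 194 to 226 in the wild types and from 216 to 246 in the nulls.

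Rbp9 gave a strong signal in all 4 genotypes. Its brighter probe set read 7571, 6000 and 6589 in Canton S, and 6131, 7602 and 9110 in BL15598. In the nulls it read 7133, 7295 and 7883 in A2663/2 and 9212, 8077 and 8587 in 2/v. The null values lay within or just above the wild-type range, and 1 of 6 null arrays exceeded the highest wild-type array. All 6 null arrays were above the wild-type median of 7080 in deposited units, in which the nulls also had the higher array medians.

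Averaged over both nulls and both wild types, the Rbp9 signal was 1.13 times as high without Su(Hw), with a 95% interval of 0.952 to 1.34 (log2 change 0.17, SE 0.109, limma adjusted p = 0.364). With each array centred on its median the log2 change was 0.0036 (adjusted p = 0.989). An exact two-sided permutation test of the 6 null against the 6 wild-type arrays gave p = 0.147. Over all probe sets, 13.5% were called in this comparison at an adjusted p under 0.05, 8.87% as higher. Whether a rise in a small share of the cells took place cannot be read from bulk arrays.

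In deposited units the pair with matched listed alleles gave the estimate nearest to no change. A2663/2 stood at 7437 ± 395 (SD, n = 3) and BL15598 at 7614 ± 1490, a ratio of 0.989 with a 95% interval of 0.778 to 1.26 (log2 change -0.02, adjusted p = 0.971). The groups overlapped. In that comparison 6.83% of all probe sets were called. With each array centred on its median the log2 change of this pair was -0.15 (adjusted p = 0.684). Nearer to no change with centring were A2663/2 against Canton S (-0.034) and 2/v against BL15598 (0.041).

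The unmatched pair differed more in deposited units. The 2/v arrays stood at 8625 ± 568 (SD, n = 3) and the Canton S arrays at 6720 ± 794, a ratio of 1.29 with an interval of 1.01 to 1.64. The log2 change was 0.36 (SE 0.154, unadjusted p = 0.0411 and adjusted p = 0.193 in limma). This did not pass the test over all probe sets, of which 10.4% were called. With each array centred on its median the log2 change was 0.16 (adjusted p = 0.643). That was the lowest of 9 alternatives, fits with 1 array left out aside, and the highest was 0.4515. Their adjusted p in limma ran from 0.06609 to 0.643, so none passed. The 2 wild types themselves differed by a ratio of 1.12 (0.884 to 1.43), and the 2 nulls by 1.16 (0.912 to 1.47). The difference of the effects of A2663/2 (against BL15598) and 2/v (against Canton S) was -0.38 on the log2 scale, with an interval of -0.87 to 0.11 and an adjusted p = 0.46.

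In order of geometric mean, Canton S had the lowest Rbp9 signal at 6689, followed by A2663/2 at 7430, BL15598 at 7516 and 2/v at 8613. No neighbours in this order differed beyond their spread (adjusted p = 0.657, 0.971 and 0.515 in turn). The order of A2663/2 and BL15598 turned with quantile normalization, with array weights and in 2 of 12 fits with 1 array left out.

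The second Rbp9 probe set was dim. It read 51.8, 81.9 and 73.8 in Canton S, 91.5, 85.7 and 100.1 in BL15598, 83.5, 60.5 and 104.8 in A2663/2, and 109.4, 121.5 and 72.1 in 2/v. Probe sets differ in how brightly they report the same RNA, so its level cannot be set against that of the first, and no source used here says which Rbp9 transcripts each one matches. Its null against wild-type change was also 0.17 (SE 0.187, 95% interval -0.24 to 0.59, adjusted p = 0.625). It was 0.54 in 2/v against Canton S (adjusted p = 0.269) and -0.19 in A2663/2 against BL15598 (adjusted p = 0.763), so both probe sets had a positive estimate in the first pair and a negative one in the second, with no call. Between the wild types its log2 change was 0.44, BL15598 against Canton S (adjusted p = 0.385), where 9.58% of all probe sets were called.

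**Figure D1:**
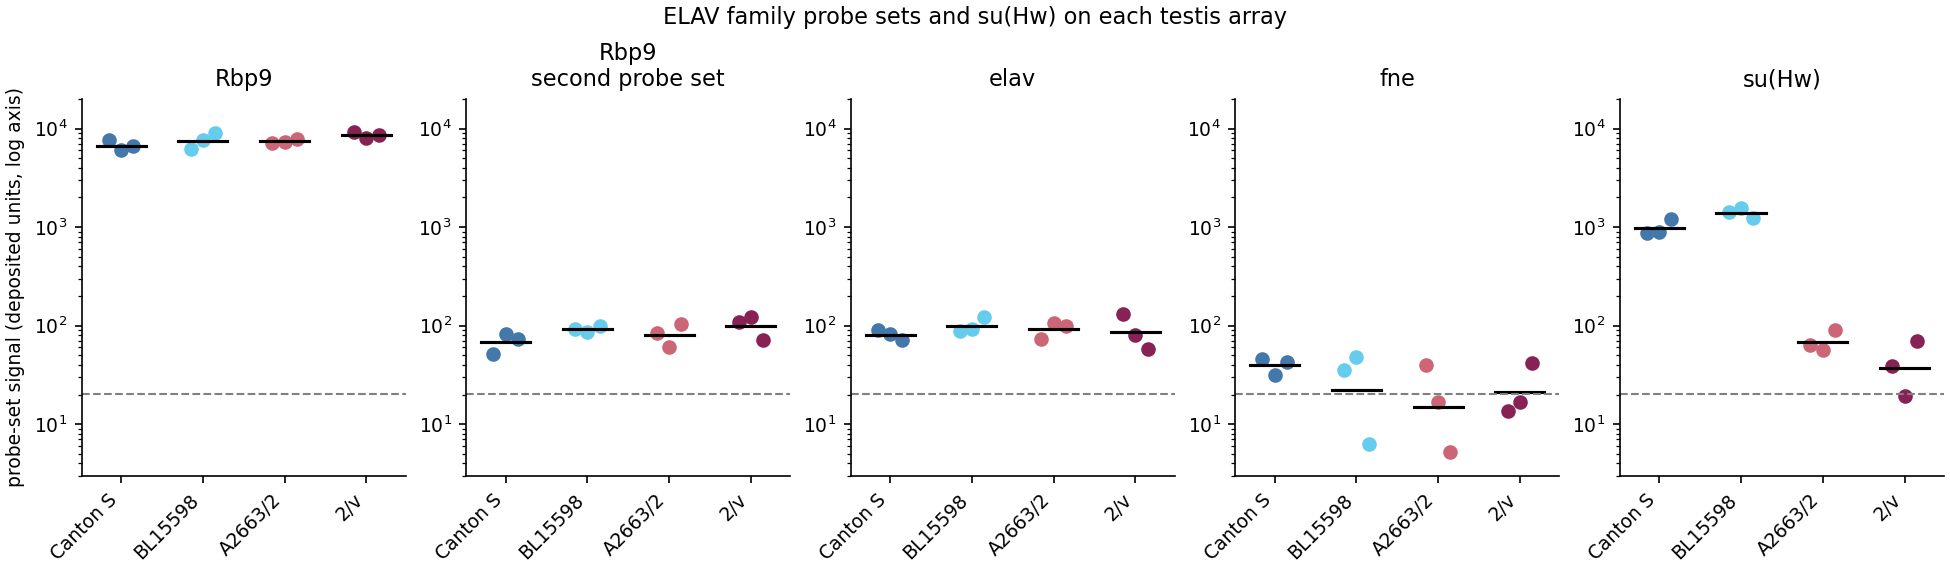
Signal of each probe set in deposited units on a log axis, by genotype. Points are arrays (3 per genotype), black bars geometric means, and the dashed line the median control signal of 20.4. The su(Hw) panel separates nulls from wild types. For the brighter Rbp9 probe set the arrays of all genotypes lie between 6000 and 9212, and for the second between 51.8 and 121.5.

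The neuronal marker gene elav was low but above the control median on all 12 arrays. Its signal was 90.3, 81.8 and 71.8 in Canton S, 87.4, 93.0 and 123.4 in BL15598, 74.0, 106.7 and 99.0 in A2663/2, and 132.2, 80.6 and 58.4 in 2/v. Both the highest and the lowest of the 12 values were 2/v arrays, and every pair of genotypes overlapped. The nulls were at 0.985 of the wild types, with an interval of 0.72 to 1.35 (log2 change -0.02, SE 0.201, adjusted p = 0.966). The change was -0.12 in A2663/2 against BL15598 (adjusted p = 0.868) and 0.08 in 2/v against Canton S (adjusted p = 0.925). By geometric mean the order was Canton S (80.9), 2/v (85.4), A2663/2 (92.1) and BL15598 (100.1), with no neighbours apart beyond their spread (adjusted p = 0.925, 0.97 and 0.868 in turn).

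The signal of fne lay around the level of the control probe sets. It read 46.3, 31.4 and 42.4 in Canton S, 35.3, 47.7 and 6.32 in BL15598, 39.7, 16.7 and 5.17 in A2663/2, and 13.5, 16.7 and 42.2 in 2/v. Of the 12 arrays 5 were below the control median, 4 of them nulls, and the 2 groups overlapped. The log2 change null against wild type was -0.72, but with an SE of 0.627 and an interval of -2.13 to 0.69 it did not pass (adjusted p = 0.537), and no fold is given because single arrays on both sides were below the control median. By geometric mean A2663/2 (15.1) was lowest, followed by 2/v (21.2), BL15598 (22.0) and Canton S (39.5), and no neighbours differed beyond their spread (adjusted p = 0.951, 0.984 and 0.66 in turn).

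Across the 4 probe sets and 8 comparisons, limma called 0 of 32 tests, and 1 had an unadjusted p under 0.05, that of Rbp9 in 2/v against Canton S. Beside the shares given above, 9.21% of all probe sets were called in A2663/2 against Canton S, 10.6% in 2/v against BL15598, 0.927% in 2/v against A2663/2 and 4.07% for the difference of the null effects. The residual SD within genotypes was 0.177 log2 units for the brighter Rbp9 probe set, 0.335 for the dim one, 0.363 for elav and 1.17 for fne. All probe sets were ranked by mean signal and split into 10 equal bins. In the bins of these 4 the median residual SD was 0.118 for the first, 0.517 for the second and for elav, and 1.14 for fne. The brighter Rbp9 probe set was thus more variable than the median of its bin, and the share called null against wild type in its bin was 6.82%. In the bin shared by elav and the dim Rbp9 probe set the share was 13.1%, and in that of fne 4.53%.

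**Figure D2:**
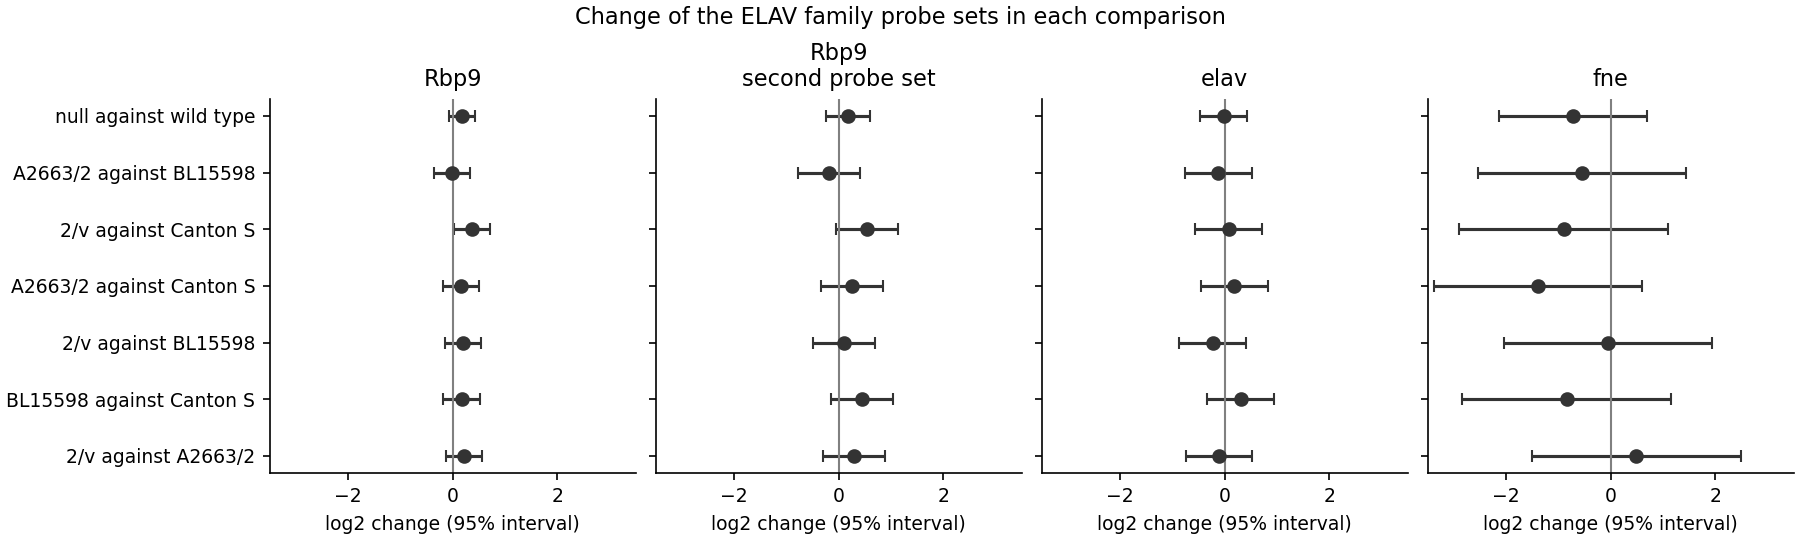
Log2 change (x axis) with its 95% interval from limma for each ELAV family probe set in 7 comparisons (rows). All intervals include 0 except that of Rbp9 in 2/v against Canton S, and those of fne are the widest.

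No correlation between members passed after adjustment. The permutations shuffled all 12 arrays without regard to genotype. The 2 Rbp9 probe sets had a Pearson r of 0.304 over 12 arrays (permutation p = 0.333, adjusted p = 0.333 over 4 relations, Spearman rho 0.448, permutation p = 0.146, adjusted p = 0.192). For Rbp9 with elav r was 0.396 (permutation p = 0.206, adjusted p = 0.275, rho 0.413, permutation p = 0.187, adjusted p = 0.192), and for Rbp9 with fne -0.508 (permutation p = 0.092, adjusted p = 0.184, rho -0.406, permutation p = 0.192, adjusted p = 0.192). For elav with fne r was -0.654 (permutation p = 0.0215, adjusted p = 0.0861, rho -0.531, permutation p = 0.0797, adjusted p = 0.192). Without the 2 arrays farthest from the median on the x axis, r was 0.494, 0.456, -0.517 and -0.673 in the same order. After the genotype means were removed, r was -0.109, 0.51, -0.509 and -0.668. The fne relations include its 5 values below the control median.

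Among 11981 other genes, those most like Rbp9 over the 12 arrays were CG31323 (Pearson r = 0.912), the Toll receptor gene Tl (0.886), the chitin deacetylase gene Cda5 (0.861), CG11029 (0.858) and RpS28-like (0.842). None of these 5 was called null against wild type, where 13.5% of all probe sets were. Between 2/v and Canton S, CG31323 (log2 change 1.34, adjusted p = 0.0499) and Tl (0.70, adjusted p = 0.0394) passed, beside 10.4% of all probe sets. As these genes were picked for likeness to Rbp9 over the same arrays, their changes are not a separate result. For elav the most like were sol, Or33c, pins, CG5909 and CG15293, at r = 0.855 to 0.793, and for fne CG7381, Obp58b, CG13287, CG12121 and CG40485, at 0.846 to 0.822. These are the highest of many correlations and moved with the scaling: with each array centred on its median, 1 of 5 stayed in the list of Rbp9, 2 in that of elav and 4 in that of fne.

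The closest relatives of the family also did not pass. Sex lethal, Sxl, the master switch gene of sex determination, had a log2 change of -0.22 (adjusted p = 0.304) null against wild type, and its paralog ssx -0.06 (adjusted p = 0.703). Of 22 RNA-binding protein genes measured from a list of 28, 2 rose, 1 fell and 19 were not called, against 13.5% of all probe sets called. Their median log2 change was 0.01, and that of all probe sets 0.05. The hnRNP gene Hrb87F rose 2.08-fold (adjusted p = 0.00759), but only Canton S stood apart, with a geometric mean of 1004 against 4883 to 5604 in the other genotypes, and the exact permutation test over 6 and 6 arrays gave p = 0.182. Hrb27C, another hnRNP gene, rose 1.27-fold (adjusted p = 0.0422). Fmr1, which encodes the fragile X homolog, fell 1.23-fold (adjusted p = 0.0263), while its other probe set had a log2 change of 0.39 (adjusted p = 0.332). With 1 array left out, Hrb27C was called in 2 of 12 fits and Fmr1 in 5 of 12.

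Other probe sets of that list gave calls that the brightest one per gene did not. These were chosen after their values were seen. A probe set of muscleblind, mbl, a splicing regulator of muscle and neurons, rose by 1.05 log2 units (adjusted p = 0.00641), and its brightest one had a change of 0.30 (adjusted p = 0.387). A probe set of Rbp6, a Musashi-like gene, rose by 1.08 (adjusted p = 0.0155), and its brightest one had 0.53 (adjusted p = 0.222).

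Genes of germ cell differentiation and reported targets of ELAV family proteins were counted beside the 13.5% of all probe sets called null against wild type. The mRNA of bam, the switch from dividing to differentiating germ cells, had geometric means of 240.0 in Canton S, 292 in BL15598, 281 in A2663/2 and 228 in 2/v (log2 change null against wild type -0.07, SE 0.166, adjusted p = 0.847). Of 10 measured genes listed for germ cell differentiation, among them bam, Sxl and tut, 1 rose, 0 fell and 9 were not called in limma. Of these 10, 3 had an unadjusted p under 0.05, and the median log2 change was -0.10. The gene that rose was Rbfox1, a splicing and translation regulator, at 1.34-fold (adjusted p = 0.0488), a call kept in 2 of 12 fits with 1 array left out and lost with each array centred on its median (adjusted p = 0.208). Of 10 measured transcripts reported as targets of ELAV family proteins, such as ewg, Nrg and Dscam1, limma called 0, and 2 had an unadjusted p under 0.05 (median log2 change -0.02). The arrays measure the amount of these RNAs and not their splicing or 3′ end choice.

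nrv3, nSyb and Appl, which are neuronal genes, were higher in the nulls, beside an elav signal that did not pass. Of 12 measured neuron markers 3 rose, 0 fell and 9 were not called null against wild type, against 13.5% of all probe sets called, 8.87% as higher. Their median log2 change was 0.70, beside 0.05 for all probe sets, 0.71 for the accessory gland markers and 0.73 for the fat body markers. The neuron markers were not uniform. ChAT had a log2 change of -0.67 (adjusted p = 0.0791), and of -1.19 in A2663/2 against BL15598 (adjusted p = 0.0542). Csp was at 0.02 (adjusted p = 0.912) null against wild type. nrv3, a neuronal sodium pump subunit gene, rose 3.79-fold (log2 1.92, SE 0.106, adjusted p = 5.32e-06), with wild-type arrays at 747 to 1114 and null arrays at 3073 to 3752. The synaptobrevin gene nSyb rose 1.81-fold (adjusted p = 0.001), with wild types at 259 to 447 and nulls at 576 to 737. Appl, the amyloid precursor-like gene, rose too (adjusted p = 0.00624), with wild types at 2.16 to 15.6 and nulls at 13.6 to 52.1. No fold is given for Appl, as arrays on both sides were below the control median of 20.4. The same 3 of 12 were not the calls in every pair, since between 2/v and Canton S Appl missed the threshold (adjusted p = 0.0924) and Gad1, for GABA synthesis, passed (adjusted p = 0.0139), which was also higher in BL15598 than in Canton S (adjusted p = 0.00755).

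The summed signal of the 12 neuron markers was 4943 to 5337 over the wild-type arrays and 7484 to 9023 over the nulls, without overlap. The gap in this sum is largely that of nrv3. Its geometric means were 933 (Canton S), 855 (BL15598), 3305 (A2663/2) and 3467 (2/v), while the bright gene Csp stayed at 2867 to 3125. The mean log2 signal per array, which weighs dim genes equally, was 5.78 to 6.78 in the wild types and 6.89 to 7.26 in the nulls. In each wild type 1 of the 12 was below the control median on all 3 arrays. Markers of other tissues moved as well, and their part in these values was not tested. Their counts, too, stand beside the 13.5% of all probe sets called. Of 7 fat body markers 4 rose (Obp99b 6.26-fold, adjusted p = 3.42e-05), and their summed signal was 873 to 1094 in the wild types and 1208 to 2101 in the nulls. By pair, 1 of the 7 was called in A2663/2 against BL15598, beside 6.83% of all probe sets. In 2/v against Canton S 3 were called, beside 10.4%. Yp2 and Yp3 had negative estimates null against wild type (-0.04 and -0.33, adjusted p = 0.943 and 0.285). Of 5 muscle sheath markers 2 fell, Tm2 1.42-fold (adjusted p = 0.0102) and Prm 1.46-fold (adjusted p = 0.0302, called in 5 of 12 fits with 1 array left out). By pair, 0 of the 5 were called in A2663/2 against BL15598 and 1 in 2/v against Canton S (Tm2, adjusted p = 0.0332). Of 10 accessory gland markers limma called 0, also at an unadjusted p under 0.05, with summed signals of 29556 to 58538 in the wild types and 40001 to 83203 in the nulls. Of 5 markers of the somatic cyst and hub cells 1 fell (shg, E-cadherin, 1.59-fold, adjusted p = 0.0149). In neither pair did shg pass (adjusted p = 0.0625 in A2663/2 against BL15598 and 0.127 in 2/v against Canton S). Among the 15 germline markers 3 rose and 2 fell, with zpg, a gap junction gene, 1.60-fold higher (adjusted p = 0.000964), dj 1.42-fold higher (adjusted p = 0.00376) and topi, a meiotic arrest gene, 1.43-fold lower (adjusted p = 0.0191). For zpg the wild types differed, with geometric means of 247 in Canton S and 133 in BL15598 (adjusted p = 0.00205), and 2/v did not pass against Canton S (log2 change 0.25, adjusted p = 0.297). For dj they differed the other way, with 8352 in Canton S and 12572 in BL15598 (adjusted p = 0.0138), A2663/2 did not pass against BL15598 (0.13, adjusted p = 0.609), and the call was lost with each array centred on its median (adjusted p = 0.0704).

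**Figure D3:**
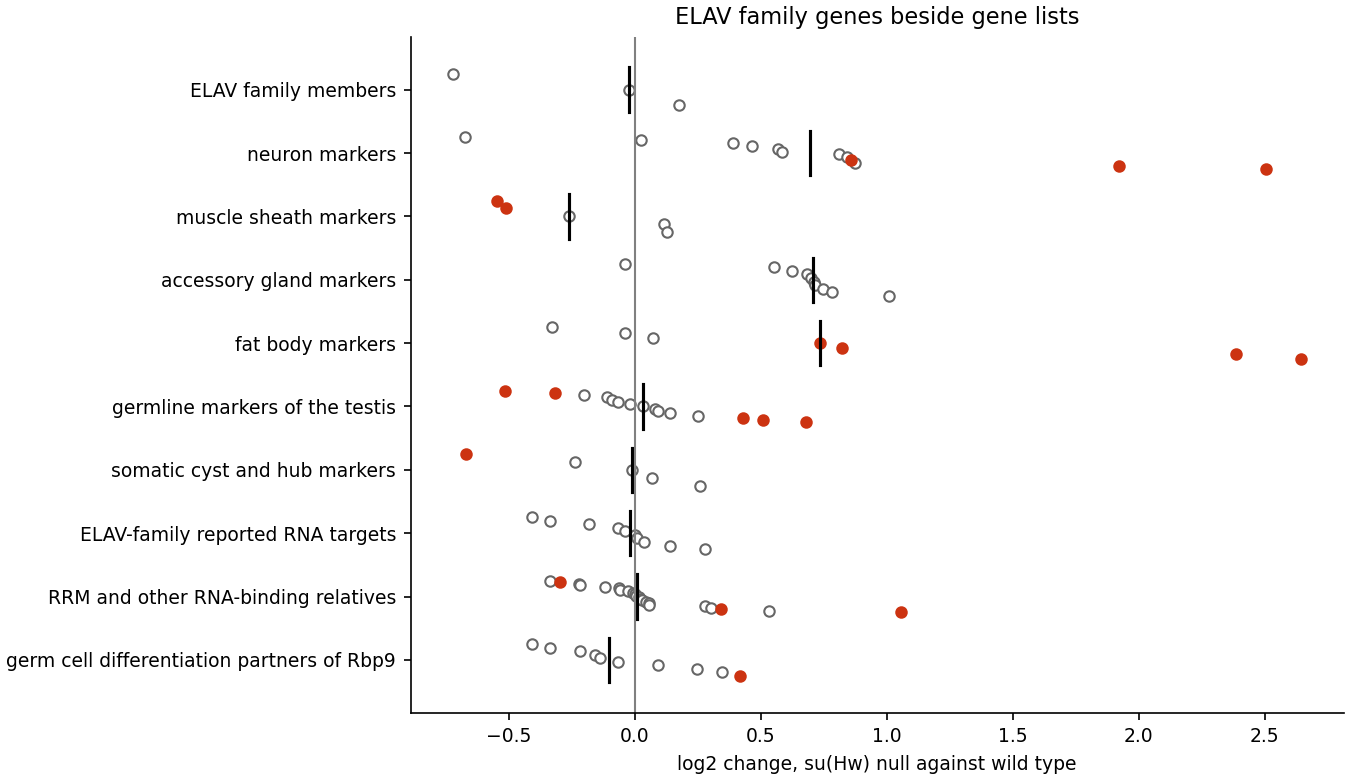
Log2 change null against wild type (x axis) of the 3 ELAV family genes and of each gene list (rows). A point is 1 gene by its brightest probe set, filled red where the adjusted p was under 0.05 and open otherwise, and black bars are medians. The 3 family members are all open, with Rbp9 at 0.17, elav at -0.02 and fne at -0.72. Of the neuron markers 3 are filled, up to Appl at 2.50, whose signal lies around the control level.

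The genes next to the family members on the chromosomes were looked up in RefSeq's gene order (Release 6 plus ISO1 MT assembly), a view added after the values were seen. Of 18 neighbours, the 3 nearest measured genes on each side, 5 were called null against wild type, which is to be read beside 13.5% of all probe sets. Next to Rbp9, lilli, a transcription elongation factor gene, had a log2 change of 0.22 (adjusted p = 0.575), and Ts, the thymidylate synthase gene whose annotated span overlaps that of Rbp9, -0.19 (adjusted p = 0.615). Farther out, NTPase fell by 0.58 (adjusted p = 0.00392), where Canton S stood above BL15598 too (log2 change BL15598 against Canton S -1.47, adjusted p = 0.000153) and A2663/2 did not pass against BL15598 (0.17, adjusted p = 0.566). Sbat rose by 0.30 (adjusted p = 0.0191), a call lost without A2663/2 replicate 3 (adjusted p = 0.054) and with centring (0.13, adjusted p = 0.417). BL15598 stood above Canton S for Sbat too (0.38, adjusted p = 0.0396). Against BL15598 A2663/2 did not pass (0.13, adjusted p = 0.535), while 2/v passed against Canton S (0.47, adjusted p = 0.0142). CG9641 fell by 0.36 (adjusted p = 0.0343), kept in 2 of 12 fits with 1 array left out. It passed neither in A2663/2 against BL15598 (adjusted p = 0.105) nor in 2/v against Canton S (adjusted p = 0.232).

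The neighbours of elav held the larger changes. CG17778 rose 3.13-fold (log2 1.65, SE 0.155, adjusted p = 0.000119), and in both pairs, by 1.49 in A2663/2 against BL15598 (adjusted p = 0.00309) and by 1.80 in 2/v against Canton S (adjusted p = 0.000707). On the other side of elav lies Appl, named above, whose signal was around the control level. Between these and elav, svr, CG4293 and arg, whose span overlaps that of elav, were not called (adjusted p = 0.598, 0.404 and 0.975). Around fne, 0 of 6 neighbours were called in limma, the nearest being hec, which encodes a neuropeptide receptor (log2 change 0.40, adjusted p = 0.455).

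**Figure D4:**
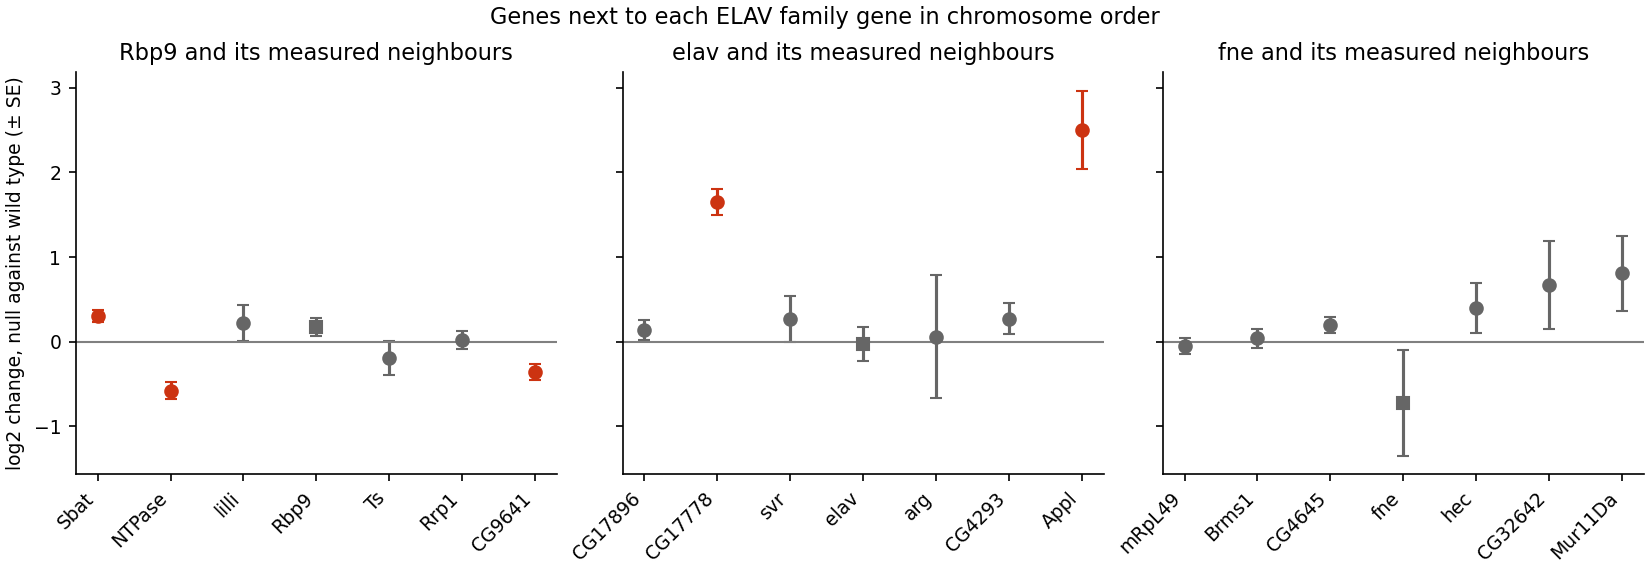
Log2 change null against wild type (y axis, ± SE from limma) of Rbp9, elav and fne (squares) and their 3 nearest measured genes on each side (circles), in RefSeq gene order. Red marks an adjusted p under 0.05. CG17778 at 1.65 and Appl at 2.50 stand above elav at -0.02. The signal of Appl lies around the control level.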

How the data were processed

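The authors deposited 1 linear intensity value per probe set and array. The submitters' processing notes name Partek 6.5 and RMA, while the values are linear, and their scaling is not given in the sources. Each value was turned to log2 as it stood, without an offset or a second normalization. The 183 control probe sets were left out of the tests, and their median signal over the 12 arrays, 20.4, served as a reference for dim probe sets, as no detection call was used.

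Of 18769 probe sets, 13647 had 1 gene symbol, 402 several and 4720 none, from the platform's annotation with symbols updated through RefSeq. The brightest probe set on average stands for a gene. limma 3.58.1 in R 4.3.3 fitted 4 genotype means to all 12 arrays (8 residual degrees of freedom before moderation by empirical Bayes). Two-sided p-values were corrected by Benjamini-Hochberg across all probe sets, and a call is an adjusted p under 0.05. Folds and changes are ratios and log2 ratios of geometric means, with 95% intervals per probe set. The fit was tested on simulated data. Alternatives were centring, quantile normalization, an offset of 16, a filter on dim probe sets, other priors and array weights, subsets of arrays, a replicate block, a permutation test and the mean of a gene's probe sets.

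The members and gene lists were chosen with earlier results of these data known. Apart from members, up to 3 called genes per list with the smallest adjusted p are named, with bam and Sxl, the 5 genes most like each member, and su(Hw) as the check of the labels. Per the labels, replicates are biological. For arrays, their number limits the precision. Promoter, protein and probe sequences were not used here.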

Additional observations from a re-analysis of the deposited data

How the results depend on the processing

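No alternative called a member in any of the 8 comparisons, and the number of arrays limits the precision, as do signals near the control level for fne. All changes here are log2. Null against wild type, Rbp9 ran from 0.0036 to 0.22 (adjusted p 0.135 to 0.989) over the alternatives that keep all arrays, the low end with each array centred on its median. Several estimates changed sign, and the cause was not tested. All were uncalled as reported except that of Fmr1, which also lost its call. Centring gave -0.034 for Rbp9 in A2663/2 against Canton S, -0.059 for its second probe set in 2/v against BL15598, -0.13 for elav in 2/v against Canton S and -0.11 for arg null against wild type. Quantile normalization gave 0.0016 for Rbp9 in A2663/2 against BL15598, -0.022 for its second probe set null against wild type and -0.13 in 2/v against BL15598, -0.18 for elav in 2/v against Canton S and -0.032 in A2663/2 against Canton S, and -0.22 for arg. With 16 added arg was at -0.034. Array weights gave 0.037 for Rbp9 in A2663/2 against BL15598, 0.042 for elav null against wild type, -0.72 for the fne difference of effects (0.35 as reported) and 0.059 for bam. The mean over a gene's probe sets gave 0.070 for Sxl and 0.047 for Fmr1 null against wild type (adjusted p = 0.847, against -0.30 and 0.0263 as reported), and called lilli (0.44, adjusted p = 0.0151).

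With 1 array left out, Rbp9 null against wild type had adjusted p of 0.147 to 0.563 in 12 fits. Estimates that changed sign ran, for A2663/2 against BL15598, from -0.16 to 0.12 in Rbp9, -0.38 to 0.021 in its second probe set, -0.23 to 0.038 in elav and -1.45 to 0.23 in fne. For 2/v against BL15598 they ran from -0.054 to 0.32 in the second Rbp9 probe set, -0.55 to 0.044 in elav and -0.95 to 0.50 in fne. For 2/v against A2663/2 elav ran from -0.42 to 0.16 and fne from -0.28 to 1.19. elav ran from -0.18 to 0.12 null against wild type, -0.24 to 0.35 in 2/v against Canton S and -0.47 to 0.12 in the difference of effects. fne ran from -1.40 to 0.056 in BL15598 against Canton S and -0.55 to 1.13 in the difference of effects. Null against wild type, bam ran from -0.16 to 0.034 and arg from -0.56 to 0.47.

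Scaling moved the split of all calls: 65.8% were higher null against wild type as deposited, 37.1% with centring and 52.1% with quantile normalization. The shares were 63.9%, 47% and 55.4% in A2663/2 against BL15598, and 65.6%, 40% and 51.9% in 2/v against Canton S. Centring moved the median change of all probe sets null against wild type from 0.05 to -0.12. Centring also ended the calls of dj, Hrb27C, Rbfox1 and Sbat. Ignoring genotype, 6 arrays against 6, gave 1401 calls against 2528, and ended those of Fbp2, zpg, dj, Hrb87F, Hrb27C, Rbfox1, Sbat and NTPase. Calls in A2663/2 against BL15598 went from 1281 to 1958 with array weights and 655 with only those groups' arrays, which gives no separate value for null against wild type. They were 798 to 1264 with 1 array left out, and 798, 848 and 808 without A2663/2 replicates 3, 2 and 1. Such fits gave 1994 to 2480 calls null against wild type.

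Same-numbered arrays of different genotypes had deviations from their genotype means that correlated at -0.037 to 0.0935 over 18 pairs (median 0.0171). For differently numbered arrays the range was -0.1 to 0.0604 over 36 pairs (median -0.0125). The ranges overlap and the values are small, and the numbers were treated as names of samples. With the replicate block Rbp9 null against wild type was 0.17 (adjusted p = 0.392), with 2359 calls against 2528. Among the named genes the block ended the call of Rbfox1 null against wild type (adjusted p = 0.0629) and changed no other, and that call was also lost with quantile normalization (0.280) and the trended, robust prior (0.0976).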
